A study of Homo sapiens with 10 samples.

Results

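Transcript levels of 10 genes of the YAP/TAZ pathway were followed across 10 RNA sequencing libraries from 3 human lung adenocarcinoma cell lines. The genes are the co-activators YAP1 and WWTR1 (which encodes TAZ), the DNA-binding partners TEAD1 and TEAD4, and the target genes CTGF, CYR61, ANKRD1, AMOTL2, THBS1 and LATS2. They were taken by gene symbol from the 23234 genes listed in all 5 of the authors' tables, and all 10 were found in each table. The rule picks rows by gene name and uses no measured value.

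The study inactivated the ABL kinases ABL1 and ABL2, cytoplasmic tyrosine kinases that act on the actin cytoskeleton and on growth signalling. PC9, PC9M and H358 cells received GNF5, an allosteric ABL inhibitor, for 72 h, and DMSO served as control. PC9M received a dose labelled 20 mM, and PC9 and H358 one labelled 10 mM. The unit of these doses could not be checked. PC9 and PC9M cells were also transduced with shRNAs against ABL1 and ABL2, or with a scrambled shRNA, in polybrene at 8 µg/mL. No other allele or agent is labelled for any group. The labels give PC9M a stronger tendency to spread to bone and brain and record no metastasis test for H358. As background, PC9 carries an activating EGFR deletion. Whether each culture was a single clone or a pool is not given in the sources used here. Each of the 10 groups held 1 library, so no value within a pair of libraries carries an error or a p-value of its own.

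In the Hippo pathway, the kinases LATS1 and LATS2 phosphorylate YAP and TAZ, which keeps them in the cytoplasm or marks them for degradation. Unphosphorylated YAP and TAZ enter the nucleus, bind TEAD proteins and switch on genes of matrix, adhesion and growth, among them CTGF and CYR61. AMOTL2 and LATS2 are targets that restrain YAP and TAZ in turn. RNA levels report on the targets and on the supply of transcripts for the regulators, but not on phosphorylation or on where the proteins are.

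The libraries listed between 11268 and 12773 genes at 1 FPKM or more. FPKM scales fragments to transcript length and to the mapped total, so levels of different genes can be set beside each other per length. The number of reads is unknown, and no counting interval can be given. ABL1 stood at 3.97 FPKM with the shRNAs and 24.9 FPKM with the scrambled shRNA in PC9, and at 3.56 FPKM with the shRNAs against 10.5 FPKM with the scrambled shRNA in PC9M. ABL2 was at 1.87 FPKM with the shRNAs against 7.88 FPKM with the scrambled shRNA in PC9 and at 3.03 FPKM with the shRNAs against 5.22 FPKM with the scrambled shRNA in PC9M. GNF5 acts on the protein, and ABL1 ratios (log2) with it lay between -0.19 and -0.01. The epithelial markers EPCAM, KRT8, KRT18, KRT19 and CDH1 were present in every library, with EPCAM between 173 and 543 FPKM. Of the 4 lung adenocarcinoma markers, KRT7 was between 321 and 1627 FPKM in the 10 libraries, whereas NAPSA reached 9.47 FPKM, in H358, and SFTPB 15.2 FPKM, in PC9, both with DMSO. The lung lineage factor NKX2-1 stood at 46.3 FPKM with GNF5 and 92.2 FPKM with DMSO in H358 but at no more than 0.0206 FPKM in PC9 and PC9M libraries. Of the fibroblast markers, DCN was listed at 0 everywhere and the 4-gene sum reached 6.59 FPKM. The leukocyte marker PTPRC reached 0.104 FPKM. The endothelial markers PECAM1 and CDH5 summed to between 14.3 and 31.5 FPKM in PC9 libraries and to at most 3.77 FPKM in the others. Their part in the results below was not tested.

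Within a table, the ratio of a pair is given as log2 of the treated over the control FPKM, each with 1 FPKM added. This understates differences of genes near or under 1 FPKM. Genes were counted as at least 2-fold apart only where 1 library of the pair reached 1 FPKM. In bulk cultures, fewer cells that express a gene and less RNA per cell cannot be told apart.

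YAP1, the main co-activator, had the narrowest range of FPKM among the 10 genes, as a ratio of highest to lowest. It stood at 35.4 FPKM with GNF5 and 34.1 FPKM with DMSO in PC9, at 50.2 FPKM with GNF5 against 55.9 FPKM with DMSO in PC9M and at 32.7 FPKM with GNF5 against 37.3 FPKM with DMSO in H358. With the ABL1/ABL2 shRNAs it was at 40.7 FPKM against 37.0 FPKM with the scrambled shRNA in PC9, and at 55.5 FPKM with the shRNAs against 45.9 FPKM with the scrambled shRNA in PC9M. The 10 libraries thus lay between 32.7 and 55.9 FPKM, with a median of 39.0 FPKM. The ratios (log2) ran between -0.18 in H358 with GNF5 and 0.27 in PC9M with the shRNAs. The gene lies on chr11:101486402-101609364 (hg18).

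WWTR1, the gene of the paralogous co-activator TAZ (chr3:150717712-150903750, hg18), differed far more between lines. It stood at 4.83 FPKM with GNF5 and 7.78 FPKM with DMSO in PC9, at 31.3 FPKM with GNF5 against 36.6 FPKM with DMSO in PC9M and at 25.3 FPKM with GNF5 against 35.7 FPKM with DMSO in H358. With the shRNAs it was at 4.86 FPKM against 9.12 FPKM with the scrambled shRNA in PC9, and at 38.6 FPKM with the shRNAs against 34.5 FPKM with the scrambled shRNA in PC9M. WWTR1 was lower in the treated library of 4 of the 5 pairs, and the 4 PC9 libraries were the low ones of the 10. On the log2 scale the ratios were -0.59, -0.22 and -0.48 with GNF5 (PC9, PC9M, H358) and -0.79 and 0.16 with the shRNAs (PC9, PC9M). The widest of these, PC9 with the shRNAs, carries the status FAIL in the authors' deposited table and was not tested there.

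A share within a library does not depend on how the tables were scaled. WWTR1 made up 12.0% of the summed YAP1 and WWTR1 FPKM with GNF5 and 18.6% with DMSO in PC9, and 10.7% with the shRNAs and 19.8% with the scrambled shRNA. In PC9M the shares were 38.5% with GNF5 against 39.6% with DMSO, and 41.0% with the shRNAs against 42.9% with the scrambled shRNA. In H358 they were 43.6% with GNF5 and 48.9% with DMSO. The treated library had the lower WWTR1 share in all 5 pairs, and both PC9 controls, from separate tables, lay above both treated PC9 libraries. The authors' deposited table gives the status FAIL to WWTR1 in the PC9 shRNA pair and to YAP1 in PC9 with GNF5. Each of the PC9 gaps thus includes a gene with that status. In PC9M the gap within a pair was smaller than the gap between the 2 controls.

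**Figure D1:**
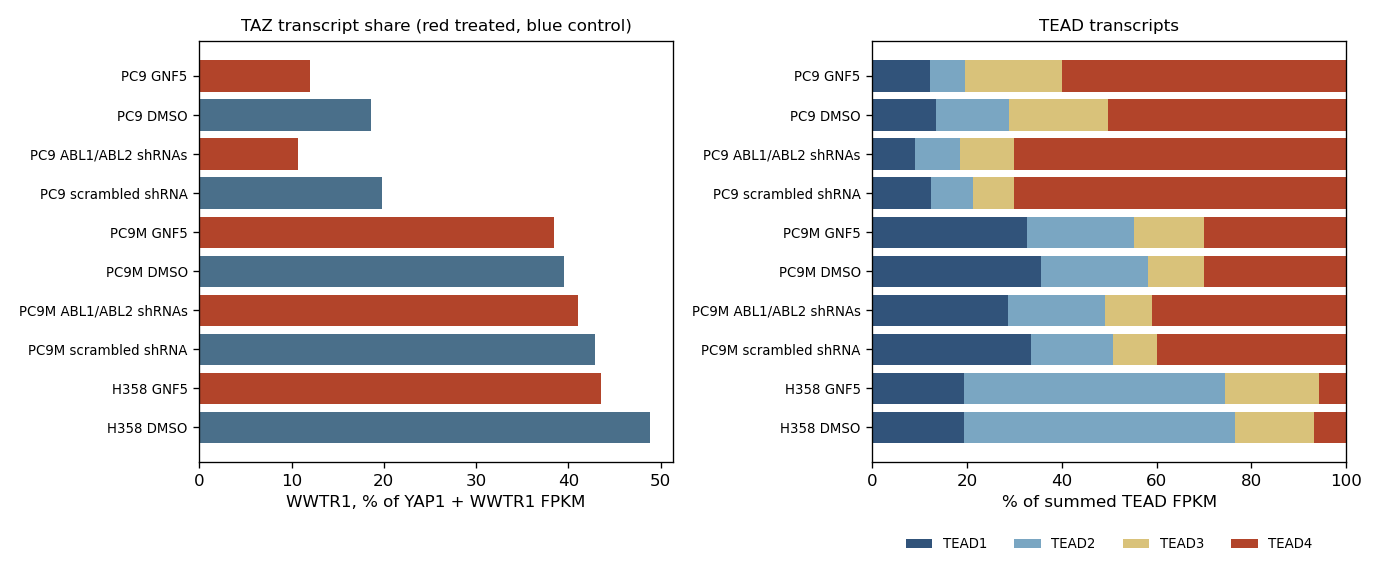
Share of WWTR1 in the summed YAP1 and WWTR1 FPKM (left) and of the 4 TEAD genes in their sum (right), both in percent on the horizontal axis, with 1 library per bar and no error bars. WWTR1 lies between 10.7% and 19.8% in the PC9 libraries and at 38.5% or more in the other lines. TEAD4 takes the largest share in PC9 and in the shRNA pair of PC9M.

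TEAD1 and TEAD4 encode transcription factors that place YAP and TAZ on DNA. TEAD1 (chr11:12652545-12922860, hg18) stood at 9.46 FPKM with GNF5 and 8.46 FPKM with DMSO in PC9, at 22.0 FPKM with GNF5 against 32.8 FPKM with DMSO in PC9M and at 9.97 FPKM with GNF5 against 13.1 FPKM with DMSO in H358. In the ABL1/ABL2 shRNA libraries it was at 9.12 FPKM against 13.1 FPKM with the scrambled shRNA in PC9, and at 26.0 FPKM with the shRNAs against 28.9 FPKM with the scrambled shRNA in PC9M. TEAD1 was lower in the treated library of 4 of the 5 pairs, and PC9M held the 4 high libraries. Its ratios (log2) were 0.15, -0.55 and -0.36 with GNF5 (PC9, PC9M, H358) and -0.48 and -0.15 with the shRNAs (PC9, PC9M).

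TEAD4 (chr12:2938739-3020103, hg18) stood at 46.7 FPKM with GNF5 and 31.6 FPKM with DMSO in PC9, at 20.3 FPKM with GNF5 against 27.5 FPKM with DMSO in PC9M and at 2.99 FPKM with GNF5 against 4.59 FPKM with DMSO in H358. The shRNA library had it at 71.3 FPKM against 74.5 FPKM with the scrambled shRNA in PC9, and at 37.2 FPKM with the shRNAs against 34.5 FPKM with the scrambled shRNA in PC9M. The ratios (log2) were 0.55, -0.42 and -0.49 with GNF5 (PC9, PC9M, H358) and -0.06 and 0.11 with the shRNAs (PC9, PC9M). The 2 PC9 controls differed more than either pair did, at 74.5 FPKM with the scrambled shRNA and 31.6 FPKM with DMSO, although these values come from separate tables. TEAD4 made up 59.9% of the summed TEAD FPKM with GNF5 and 50.3% with DMSO in PC9, 30.1% with GNF5 against 29.9% with DMSO in PC9M, and 5.78% with GNF5 against 6.82% with DMSO in H358. With the shRNAs its share was 70.0% against 70.1% with the scrambled shRNA in PC9 and 40.9% with the shRNAs against 40.0% with the scrambled shRNA in PC9M. TEAD4 was thus the leading TEAD in all 4 PC9 libraries, whereas TEAD2, at 55.2% with GNF5 and 57.2% with DMSO, led in H358. In PC9M, TEAD4 also led in both libraries of the shRNA pair. TEAD1, at 32.6% with GNF5 and 35.7% with DMSO, led in the GNF5 pair of PC9M.

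The target genes include secreted matrix proteins whose promoters are known TEAD targets. Promoter sequences, 250 bases before to 50 bases after a RefSeq start on GRCh38.p14, were found for 7 of the 10 genes in 9 entries, and CYR61, TEAD1 and TEAD4 had no entry. The TEAD motif GGAATG was searched on both strands. At least 1 match was present in 14.0% of 35116 promoters of that length, at least 2 in 1.37% and at least 3 in 0.128%. CTGF had 3 matches, ANKRD1 had 2, and THBS1 and LATS2 had 1 each, as did YAP1 and 1 of the 2 AMOTL2 entries, there on the opposite strand. Neither of the 2 WWTR1 entries had any. No entry held the SRF motif known as the CArG box, which 1.29% of promoters hold, or the AP-1 motif TGACTCA or TGAGTCA, which 4.95% hold. The promoters of 4 targets are shown because these genes gave the widest ratios or the most matches, read 5′ to 3′ on the gene's strand with the TEAD motif in capitals.
CTGF, chr6:131951323-131951622, minus strand: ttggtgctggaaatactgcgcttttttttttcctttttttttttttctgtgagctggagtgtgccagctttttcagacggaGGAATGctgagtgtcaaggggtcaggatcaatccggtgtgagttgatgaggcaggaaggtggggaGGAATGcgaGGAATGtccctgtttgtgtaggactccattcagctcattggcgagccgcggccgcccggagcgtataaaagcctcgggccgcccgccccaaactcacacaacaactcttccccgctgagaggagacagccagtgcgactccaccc
ANKRD1, chr10:90921038-90921337, minus strand: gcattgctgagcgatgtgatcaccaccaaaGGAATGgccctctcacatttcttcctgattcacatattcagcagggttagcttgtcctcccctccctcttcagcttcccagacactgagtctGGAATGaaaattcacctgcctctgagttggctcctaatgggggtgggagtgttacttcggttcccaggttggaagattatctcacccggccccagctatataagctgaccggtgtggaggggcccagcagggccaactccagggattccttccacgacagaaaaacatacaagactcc
THBS1, chr15:39580829-39581128, plus strand: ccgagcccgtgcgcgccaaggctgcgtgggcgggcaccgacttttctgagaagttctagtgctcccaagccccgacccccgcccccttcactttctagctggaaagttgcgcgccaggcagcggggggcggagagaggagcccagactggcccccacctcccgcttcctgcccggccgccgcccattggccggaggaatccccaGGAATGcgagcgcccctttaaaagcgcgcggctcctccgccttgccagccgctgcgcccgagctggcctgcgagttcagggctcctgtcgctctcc
LATS2, chr13:21061537-21061836, minus strand: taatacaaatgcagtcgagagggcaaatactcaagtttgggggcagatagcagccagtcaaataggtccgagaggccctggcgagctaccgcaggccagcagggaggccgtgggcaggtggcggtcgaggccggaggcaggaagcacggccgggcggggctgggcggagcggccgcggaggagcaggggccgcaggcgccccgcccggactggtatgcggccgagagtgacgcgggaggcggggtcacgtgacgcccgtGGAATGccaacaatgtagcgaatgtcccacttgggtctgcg
Counted from the start site, the CTGF matches lie at -169 to -164, -104 to -99 and -95 to -90, and those of ANKRD1 at -220 to -215 and -128 to -123. The match in THBS1 lies at -46 to -41 and that in LATS2 at 9 to 14, inside the transcript. A match describes the letters only, and binding was not measured here.

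CTGF (chr6:132311010-132314211, hg18), also called CCN2, encodes a secreted matricellular protein and is a standard readout of YAP and TAZ. It stood at 39.0 FPKM with GNF5 and 73.2 FPKM with DMSO in PC9M, and at 27.9 FPKM with GNF5 against 83.6 FPKM with DMSO in H358. In PC9 it was under 1 FPKM throughout, at 0.309 FPKM with GNF5 and 0.00656 FPKM with DMSO, and at 0.0941 FPKM with the shRNAs and 0.0559 FPKM with the scrambled shRNA. With the shRNAs in PC9M it was at 23.3 FPKM against 19.6 FPKM with the scrambled shRNA. CTGF was therefore lower with GNF5 in both lines where it exceeded 1 FPKM and slightly higher with the shRNAs in PC9M. On the log2 scale the ratios were -0.89 in PC9M and -1.55 in H358 with GNF5, and 0.24 in the PC9M shRNA pair. In the authors' deposited table CTGF has a q-value of 6.13e-06 in H358 and 0.527 in PC9M with GNF5, from a test of 1 library against 1.

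CYR61 (chr1:85819032-85822236, hg18), or CCN1, encodes a second matricellular protein of the same family. It stood at 44.6 FPKM with GNF5 and 24.0 FPKM with DMSO in PC9, at 109 FPKM with GNF5 against 169 FPKM with DMSO in PC9M and at 58.8 FPKM with GNF5 against 143 FPKM with DMSO in H358. With the shRNAs it was at 68.4 FPKM against 46.7 FPKM with the scrambled shRNA in PC9, and at 91.0 FPKM with the shRNAs against 63.6 FPKM with the scrambled shRNA in PC9M. CYR61 was lower with GNF5 in PC9M and H358 but higher in the treated library of the 3 other pairs. The ratios (log2) with GNF5 were 0.87, -0.63 and -1.27 in PC9, PC9M and H358. With the shRNAs they were 0.54 in PC9 and 0.51 in PC9M. For H358 the authors' deposited table gives a q-value of 0.00150.

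THBS1 (chr15:37660572-37676960, hg18) encodes thrombospondin 1, a matrix glycoprotein that inhibits angiogenesis and can activate TGF-beta. It stood at 13.2 FPKM with GNF5 and 12.4 FPKM with DMSO in PC9, at 63.0 FPKM with GNF5 against 108 FPKM with DMSO in PC9M and at 9.79 FPKM with GNF5 against 30.9 FPKM with DMSO in H358. In the ABL1/ABL2 shRNA libraries it was at 35.6 FPKM against 57.7 FPKM with the scrambled shRNA in PC9, and at 110 FPKM with the shRNAs against 88.1 FPKM with the scrambled shRNA in PC9M. The lines again differed in direction, with the lowest ratio in H358 and a value near 0 in PC9 with GNF5. The ratios (log2) were 0.08, -0.77 and -1.56 with GNF5 (PC9, PC9M, H358) and -0.68 and 0.32 with the shRNAs (PC9, PC9M). THBS1 has, in the authors' deposited table for H358, a q-value of 1.60e-06.

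ANKRD1 (chr10:92661837-92671012, hg18), which encodes a mechanosensitive ankyrin repeat protein, was a low transcript. It stood at 1.27 FPKM with GNF5 and 0.420 FPKM with DMSO in PC9, and at 6.69 FPKM with GNF5 against 11.6 FPKM with DMSO in PC9M. In H358 it was at 0.0169 FPKM with GNF5 and listed at 0 with DMSO. The shRNA library had it at 3.41 FPKM against 1.07 FPKM with the scrambled shRNA in PC9, and at 8.60 FPKM with the shRNAs against 6.20 FPKM with the scrambled shRNA in PC9M. ANKRD1 was higher in the treated library in both PC9 pairs and with the shRNAs in PC9M, and lower with GNF5 in PC9M. On the log2 scale the ratios were 0.68 and -0.72 with GNF5 in PC9 and PC9M, and 1.09 and 0.41 with the shRNAs. For the PC9 shRNA pair a q-value of 0.0376 stands in the authors' deposited table.

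AMOTL2 (chr3:135556880-135576096, hg18) encodes an angiomotin family scaffold that binds YAP. It stood at 36.4 FPKM with GNF5 and 25.6 FPKM with DMSO in PC9, at 48.2 FPKM with GNF5 against 56.1 FPKM with DMSO in PC9M and at 7.06 FPKM with GNF5 against 11.4 FPKM with DMSO in H358. With the shRNAs it was at 14.1 FPKM against 13.2 FPKM with the scrambled shRNA in PC9, and at 40.1 FPKM with the shRNAs against 37.4 FPKM with the scrambled shRNA in PC9M. AMOTL2 hardly differed within the shRNA pairs. The ratios (log2) were 0.49, -0.22 and -0.62 with GNF5, and 0.09 and 0.10 with the shRNAs.

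LATS2 (chr13:20445176-20533722, hg18), the feedback kinase, stood at 4.17 FPKM with GNF5 and 1.53 FPKM with DMSO in PC9, at 6.16 FPKM with GNF5 against 8.45 FPKM with DMSO in PC9M and at 4.74 FPKM with GNF5 against 4.64 FPKM with DMSO in H358. In the ABL1/ABL2 shRNA libraries it was at 1.56 FPKM against 1.95 FPKM with the scrambled shRNA in PC9, and at 5.31 FPKM with the shRNAs against 5.88 FPKM with the scrambled shRNA in PC9M. The GNF5 library of PC9 stood above the 3 other PC9 libraries. On the log2 scale the ratios were 1.03, -0.40 and 0.03 with GNF5 (PC9, PC9M, H358) and -0.21 and -0.12 with the shRNAs.

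**Figure D2:**
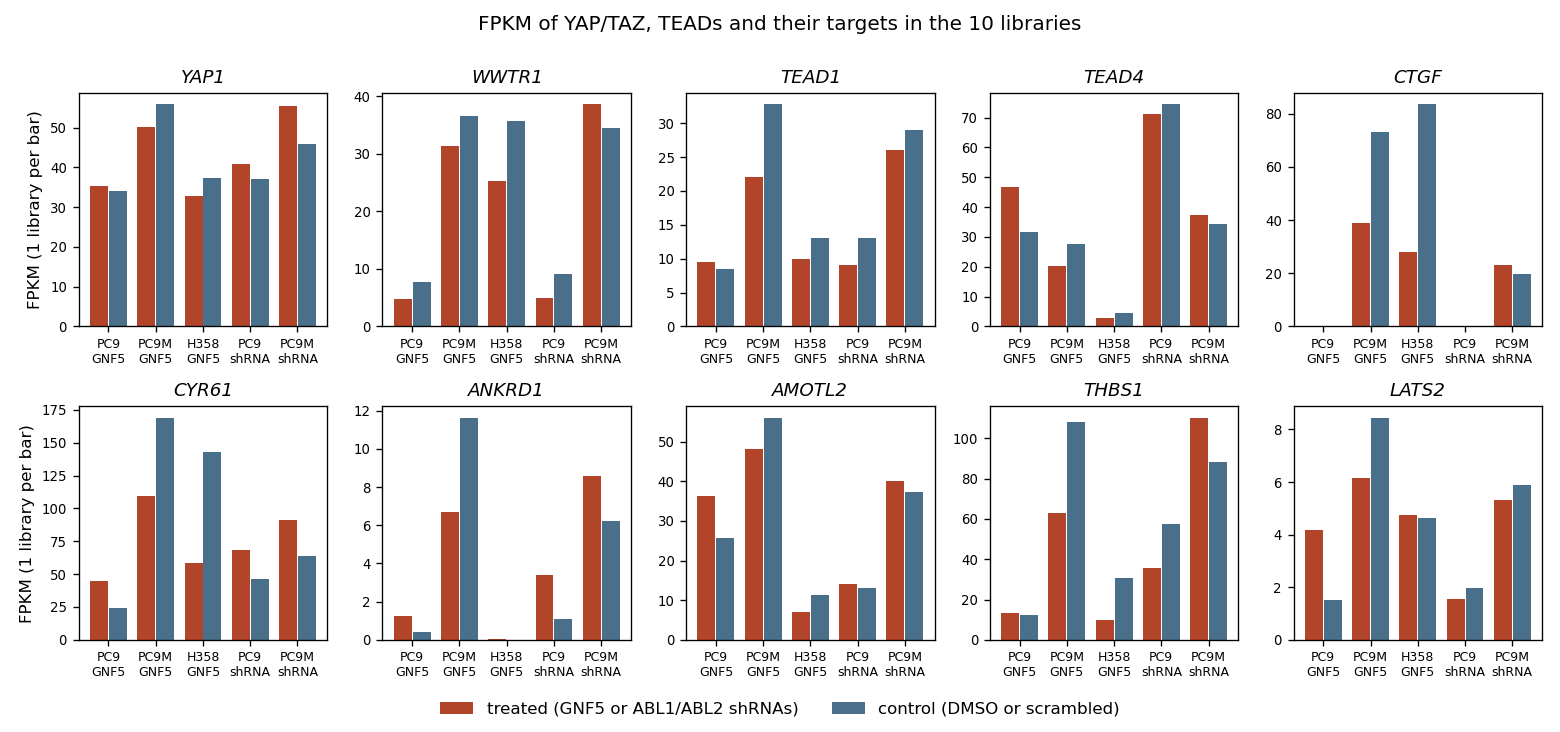
FPKM (vertical axis, linear, its own range for each gene) of the 10 genes in the 5 pairs of libraries, with the treated library in red left of its control in blue, 1 library per bar and no error bars. CTGF is under 1 FPKM in the 4 PC9 libraries and reaches 83.6 FPKM in H358 with DMSO, while YAP1 stays between 32.7 and 55.9 FPKM.

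Read together by pair, the direction of the 10 genes with GNF5 differed between lines. In PC9M all 10 were lower with GNF5, with a median ratio (log2) of -0.49 against -0.06 over all genes at 1 FPKM or more, 57.7% of which were lower. In H358, 8 of 10 were lower, a count near the share of all genes that were lower, 74.5%. The median there was -0.48 against -0.19 over all genes. With the median of all genes removed, 7 of 10 were lower in H358 and 10 of 10 in PC9M, and 9 of 10 were higher in PC9. In PC9, 9 of 10 were higher, with a median of 0.44 against -0.10 over all genes, 43.0% of which were higher. WWTR1 was the gene that was lower in PC9. All 10 members were counted, while the values over all genes left out those under 1 FPKM in both libraries. CTGF in PC9 and ANKRD1 in H358, both under 1 FPKM, were thus counted as higher. Without them, the members' medians with GNF5 were 0.49 in PC9 and -0.49 in H358. With the shRNAs 5 of 10 were higher in PC9, with a median of -0.01 against -0.09, and 8 of 10 in PC9M, with a median of 0.20 against -0.01. The share of all genes that were higher was 37.7% in PC9 and 48.1% in PC9M.

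The 6 targets had wider medians with GNF5 than the 4 other genes. Their median ratio (log2) was 0.58, -0.67 and -0.94 with GNF5 (PC9, PC9M, H358) and 0.07 and 0.28 with the shRNAs (PC9, PC9M). For the 4 co-activator and TEAD genes the medians were 0.10, -0.32 and -0.42 with GNF5, and -0.27 and 0.13 with the shRNAs. These are descriptions of single pairs of libraries, without a test.

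**Figure D3:**
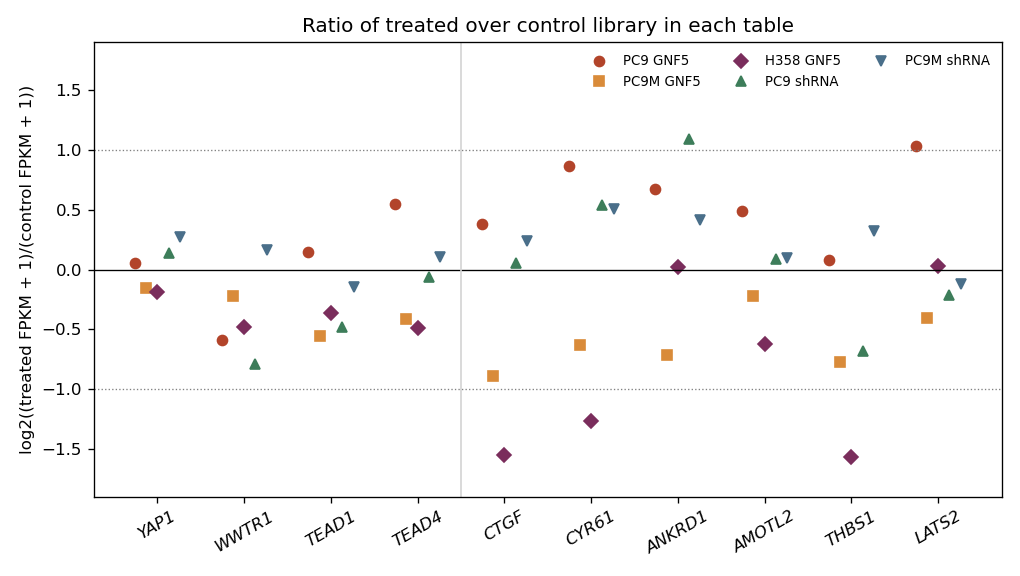
Log2 ratio of treated over control FPKM, each with 1 FPKM added (vertical axis), for the 10 genes along the horizontal axis, with 1 point per pair of libraries and no error. All points of PC9M with GNF5 lie under 0, 9 of the 10 of PC9 with GNF5 lie above it, and CTGF, CYR61 and THBS1 in H358 lie under -1.

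Few of the genes were at least 2-fold apart. In H358 with GNF5, 3 of the 9 genes at 1 FPKM or more were at least 2-fold lower, against 2.4% of all genes. These were CTGF, CYR61 and THBS1, which are also the 3 members marked significant in the authors' deposited table, where 0.709% of the genes it tested are so marked. None was 2-fold higher there, against 1.12% of all genes. In PC9 with GNF5, LATS2 was the only one of 9 at least 2-fold higher, against 5.17% of all genes, and none was 2-fold lower, against 6.83%. In PC9 with the shRNAs, ANKRD1 was the only one of 9 at least 2-fold higher, against 1.21%, and none was 2-fold lower, against 1.92%.

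In PC9M none of the 10 was 2-fold apart in either pair. The background shares there were 1.58% higher and 1.81% lower with GNF5, and 1.01% higher and 0.808% lower with the shRNAs. The authors' deposited table marked no member significant in PC9 with GNF5 (0.259% of all genes it tested) or in PC9M with GNF5 (0.481%). With the shRNAs the authors' deposited table marked ANKRD1 in PC9 (0.739% of all) and no member in PC9M (0.936%). YAP1 in PC9 with GNF5 and WWTR1 in PC9 with the shRNAs had the status FAIL there and no test. ANKRD1 in H358 with GNF5 and CTGF in PC9 with the shRNAs, under 1 FPKM in both libraries, had the status NOTEST.

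To test the members over lines, limma was run on the ratios of the 5 pairs for 13885 genes, and the lines stood as repeats of a perturbation. The fit took no account of the higher labelled GNF5 dose in PC9M. None of the 10 genes passed in the average over lines for GNF5, where 0.0072% of all genes did. The single gene past the threshold was MIR149, a microRNA gene named after its value was seen. None of the 10 passed for the shRNAs, for the average of both perturbations or for the difference between them, where 0.0% of all genes did in each. At an unadjusted p under 0.05 limma listed 2359 genes for GNF5, 595 for the shRNAs, 1336 for the average and 1137 for the difference, and 0 of the 10 genes were among them in each case. Members' adjusted p-values in limma ran between 0.327 and 0.994 for GNF5, were 1 for the shRNAs, and ran between 0.506 and 0.981 for the average and between 0.661 and 0.957 for the difference.

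The lowest averages with GNF5 were those of THBS1 and CTGF. THBS1 averaged -0.75 (log2, SE 0.342) over 3 lines, with a limma adjusted p of 0.327, and was lower in 2 of them. CTGF averaged -0.69 (SE 0.353) with a limma adjusted p of 0.364, and WWTR1, lower in 3 of 3 lines, averaged -0.43 (SE 0.202) with 0.337. With the GNF5 pair of PC9 left out, CTGF averaged -1.22 (SE 0.190) and CYR61 -0.95 (SE 0.178), and both had a limma adjusted p of 0.171. The shRNA pair of PC9 stayed in that fit and in its spread. With H358 left out, the averages were -0.26 (SE 0.358) for CTGF, -0.35 (SE 0.357) for THBS1 and 0.12 (SE 0.402) for CYR61, with limma adjusted p of 0.741, 0.656 and 0.907. At a pseudocount of 0.1 FPKM the CTGF average over 3 lines was -0.18 (SE 0.655). The highest average with the shRNAs was that of ANKRD1, at 0.75 (SE 0.349) over 2 lines, with a limma adjusted p of 1. The difference of GNF5 minus the shRNAs was -0.83 (SE 0.558) for CTGF and -0.87 (SE 0.609) for CYR61, with limma adjusted p of 0.693 and 0.706. A p that misses the threshold in this small design does not show that the perturbations act alike.

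The 2 controls of a line were also set side by side, across separately normalised tables and with the median of all genes removed. They differ in kind, since 1 received DMSO and the other was transduced with a scrambled shRNA in polybrene, so transduction and the spread between cultures cannot be told apart. In PC9M, scrambled over DMSO, the ratio (log2) was -1.84 for CTGF, -1.38 for CYR61 and -0.80 for ANKRD1, each wider than the ratio of GNF5 over DMSO. In all, 6 of the 10 genes had a wider ratio between the PC9M controls than with GNF5, and 7 had a wider one than with the shRNAs. At least 2-fold apart between the PC9M controls were 2 of the 10 genes, against 2.86% of all genes. In PC9 the ratio was 1.96 for THBS1, 1.05 for TEAD4 and -1.07 for AMOTL2, and 3 of the 9 genes at 1 FPKM or more were at least 2-fold apart, against 17.6% of all genes. There, 4 of the 10 genes had a wider ratio between the controls than with GNF5, and 5 than with the shRNAs.

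The direction of several targets depended on the control. Set against the scrambled library of PC9M in place of DMSO, GNF5 gave a centred ratio (log2) of 1.00 for CTGF and 0.81 for CYR61, and 6 of the 10 genes were higher. Set against DMSO in place of the scrambled shRNA, the PC9M shRNA library gave -1.58 for CTGF. In PC9, GNF5 against the scrambled library gave 1.66 for AMOTL2 and 1.08 for LATS2 but -1.78 for THBS1. The shRNA library of PC9 against DMSO gave 1.37 for THBS1 and -0.89 for AMOTL2, where the ratios to the scrambled library were -0.68 and 0.09, while ANKRD1 and CYR61 kept their direction at 1.56 and 1.40. By centred ratios to the other control, 6 of the 10 genes were higher in PC9 with GNF5. With the shRNAs, 7 of 10 were higher in PC9 and 4 of 10 in PC9M. The comparison with the other control was added after the data were seen.

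**Figure D4:**
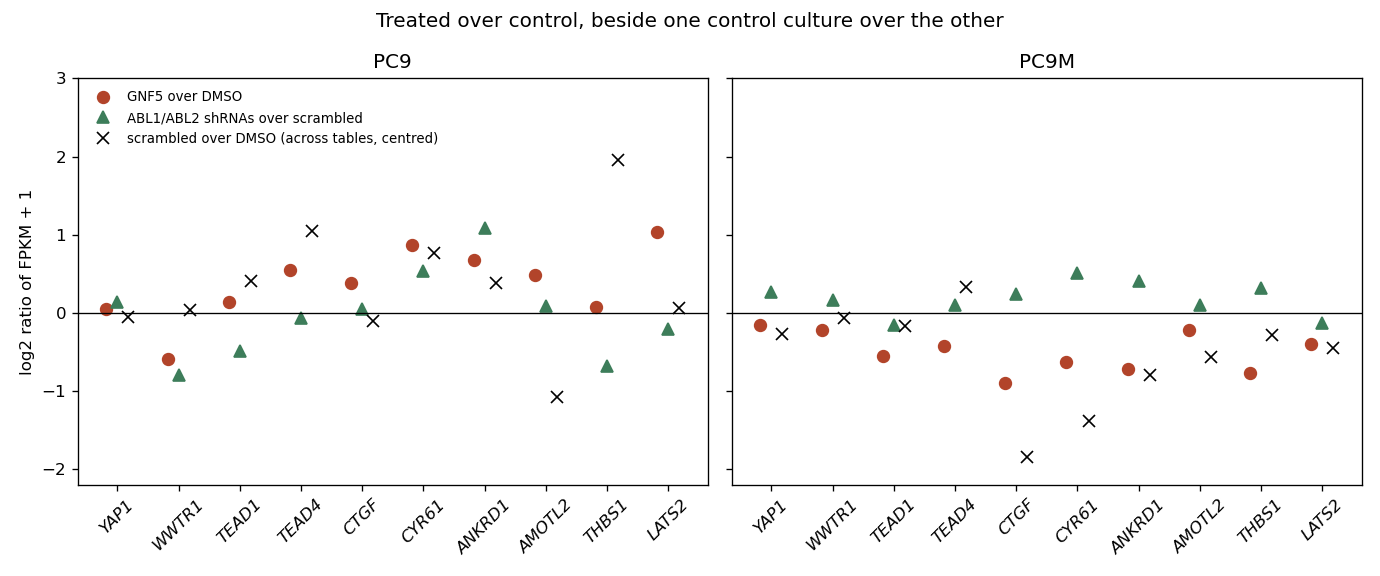
Log2 ratios of FPKM plus 1 for the 10 genes in PC9 (left) and PC9M (right), with GNF5 over DMSO as circles, the shRNAs over the scrambled shRNA as triangles and the scrambled over the DMSO library, across tables and centred, as crosses. Each point is 1 pair of libraries, and the crosses of CTGF in PC9M at -1.84 and of THBS1 in PC9 at 1.96 lie further out than the treated ratios.

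A gene whose GNF5 and shRNA libraries both lie on 1 side of both controls of the line keeps its direction whichever control is used, although these levels stand in separate tables. In PC9, 1 of the 10 members, WWTR1, was below both controls as listed, against 12.8% of all genes. ANKRD1, also 1 of 10, was above both, against 6.63%. Both counts lay near the shares of all genes. The values of WWTR1 in the PC9 shRNA pair and of YAP1 in PC9 with GNF5 carry the status FAIL. With each library's median removed, YAP1 and CYR61 joined ANKRD1 above both, against 10.5% of all genes, and WWTR1 stayed below both, against 9.28%. In PC9M, TEAD1 was the only member below both controls, at 22.0 and 26.0 FPKM in the treated libraries and 32.8 and 28.9 FPKM in the controls, against 11.7% of all genes. None was above both, against 4.84%. The 1 of 10 below both likewise lay near the share of all genes. With the medians removed, TEAD1 again was the only member below both, against 7.43%, and none was above both, against 8.42%.

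For CTGF and WWTR1, PC9M and PC9 lay further apart than any 2 libraries of PC9M did. Between the DMSO libraries of PC9M over PC9, across tables and centred, the ratio (log2) was 6.06 for CTGF, 3.01 for ANKRD1, 2.88 for THBS1, 2.63 for CYR61 and 1.96 for WWTR1. At least 2-fold apart were 7 of 10 genes, against 43.2% of all genes. Between the scrambled libraries it was 4.33 for CTGF, 1.85 for WWTR1 and 1.84 for ANKRD1 but 0.65 for THBS1 and 0.48 for CYR61, and 7 of 10 were at least 2-fold apart, against 34.3%. All of the genes except TEAD4 were higher in PC9M with both kinds of control, and TEAD4 was lower with both, at -0.34 and -1.05.

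H358 showed a different makeup. Over PC9 in DMSO, the ratio (log2) was 5.97 for CTGF, 2.10 for CYR61 and 1.64 for WWTR1 but -2.97 for TEAD4 and -1.53 for AMOTL2. Of 9 genes at 1 FPKM or more, 5 were at least 2-fold apart, against 45.3% of all genes. Over PC9M in DMSO, CTGF was at -0.06, while ANKRD1 was at -3.91, TEAD4 at -2.60, AMOTL2 at -2.45 and THBS1 at -2.02. There, 5 of 10 were at least 2-fold apart, against 33.7%. With DMSO, CTGF thus ran in the order PC9, PC9M and H358, with 0.00656, 73.2 and 83.6 FPKM, and CYR61 in the order PC9, H358 and PC9M, with 24.0, 143 and 169 FPKM. With 1 library per line and condition, no spread is at hand to say which neighbours differ.

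Other genes of the pathway were read from lists of known targets and regulators. Of 22 other YAP/TAZ targets, 3 of the 19 at 1 FPKM or more were at least 2-fold higher with GNF5 in PC9, against 5.17% of all genes, and none was 2-fold lower, against 6.83%. The list's median ratio (log2) was 0.18. The 3 were GADD45A, a stress-induced growth arrest gene, at 236 FPKM with GNF5 and 61.9 FPKM with DMSO, TGFB2, a TGF-beta ligand, at 10.2 FPKM with GNF5 against 4.30 FPKM with DMSO, and CCDC80, a matrix gene, at 11.2 FPKM with GNF5 against 4.88 FPKM with DMSO. In PC9M with GNF5, 13 of 21 were lower, against 57.7% of all genes, the median was -0.17, and BIRC5, which encodes the mitotic protein survivin, was the only one 2-fold apart, at 25.1 FPKM against 58.4 FPKM with DMSO. NT5E was higher there at 0.92, as were AREG and GADD45A, named after their values were seen, at 0.72 and 0.65. In H358 with GNF5, 17 of 18 were lower, against 74.5% of all genes, and the median was -0.39, against -0.19. None of them was 2-fold apart, against 1.12% of all genes higher and 2.4% lower, and FJX1 had the widest ratio at -0.93.

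With the shRNAs the list had medians of -0.06 in PC9 and 0.09 in PC9M, against -0.09 and -0.01 over all genes. At least 2-fold higher were 1 of 18 in PC9, against 1.21% of all genes, and 1 of 21 in PC9M, against 1.01%. ASAP1, which encodes an Arf GTPase-activating protein at focal adhesions, was higher in both lines, at 37.6 FPKM with the shRNAs against 16.3 FPKM with the scrambled shRNA in PC9 and 41.9 FPKM with the shRNAs against 18.3 FPKM with the scrambled shRNA in PC9M. AREG, the gene of the EGFR ligand amphiregulin, was at 3.97 FPKM with the shRNAs and 10.7 FPKM with the scrambled shRNA in PC9M. It was the 1 of 21 at least 2-fold lower in that pair, against 0.808% of all genes.

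Hippo kinases and regulators showed small ratios. The medians (log2) of the 20 genes were 0.08, -0.06 and -0.13 with GNF5 in PC9, PC9M and H358 (19 genes at 1 FPKM or more), and -0.06 and 0.02 with the shRNAs. The one gene at least 2-fold apart in any pair was RASSF1, a tumour suppressor that acts on the MST kinases, at 19.7 FPKM with GNF5 and 9.23 FPKM with DMSO in PC9, where 5.17% of all genes were 2-fold higher. The next were LIMD1, PTPN14 and AMOT, at 0.95, 0.87 and 0.83 in the same pair. LIMD1 binds LATS kinases, PTPN14 binds YAP, and AMOT is a relative of AMOTL2. AMOTL1 stands both in this list and among the other targets.

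Among TEAD2, TEAD3 and the vestigial-like genes VGLL1, VGLL3 and VGLL4, whose proteins bind TEADs, only VGLL1 was 2-fold apart in any pair. It stood at 62.1 FPKM with GNF5 and 22.5 FPKM with DMSO in PC9, where 5.17% of all genes were at least 2-fold higher. In PC9M it was at 60.6 FPKM with the shRNAs and 97.1 FPKM with the scrambled shRNA. VGLL4, a repressor of TEAD activity, was at 18.6 FPKM with the shRNAs against 33.3 FPKM with the scrambled shRNA in PC9.

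SRF and its actin-regulated co-activators respond to the cytoskeleton, as YAP and TAZ do. Of their 16 targets listed, 12 (PC9), 13 (PC9M) and 14 (H358) reached 1 FPKM in the GNF5 pairs. In each shRNA pair 12 did. The medians (log2) of these were 0.21, 0.02 and -0.35 with GNF5, against -0.10, -0.06 and -0.19 over all genes. With the shRNAs they were 0.03 in PC9 and 0.24 in PC9M, against -0.09 and -0.01. In PC9 with GNF5, FOS was at 55.4 FPKM against 368 FPKM with DMSO, EGR1 at 2.10 FPKM with GNF5 against 13.9 FPKM with DMSO and TPM1 at 56.5 FPKM with GNF5 against 128 FPKM with DMSO. FOS and EGR1 are immediate early genes, and TPM1 encodes a tropomyosin. These 3 of 12 were the ones at least 2-fold lower in that pair, against 6.83% of all genes. In H358, 13 of 14 were lower, against 74.5% of all genes, and MYL9, a myosin light chain gene, was the one 2-fold lower at -1.20, against 2.4%. With the shRNAs in PC9, TAGLN, which encodes an actin-binding protein, was the one of 12 at least 2-fold higher, at 6.87 FPKM against 2.37 FPKM with the scrambled shRNA, against 1.21% of all genes. In PC9M with the shRNAs 12 of 12 were higher, against 48.1% of all genes, none by 2-fold.

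SMAD proteins, the effectors of TGF-beta, can act together with YAP and TAZ, and 10 of their targets were listed. In PC9 with GNF5, 4 of 10 were at least 2-fold lower, against 6.83% of all genes, namely CDKN2B, PMEPA1, SKIL and LTBP2, with ratios (log2) of -2.29, -2.14, -1.56 and -1.45, while BHLHE40 and TGFBI, named after their values were seen, were among those at least 2-fold higher, at 1.34 and 1.24, against 5.17% of all genes. The median over the 10 was 0.33. In H358, 8 of 9 were lower, against 74.5% of all genes, with a median of -0.37, against -0.19 over all genes. No pair other than PC9 with GNF5 had one 2-fold apart. Over all genes, too, that pair had the largest shares at least 2-fold higher and lower of the 5 pairs.

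**Figure D5:**
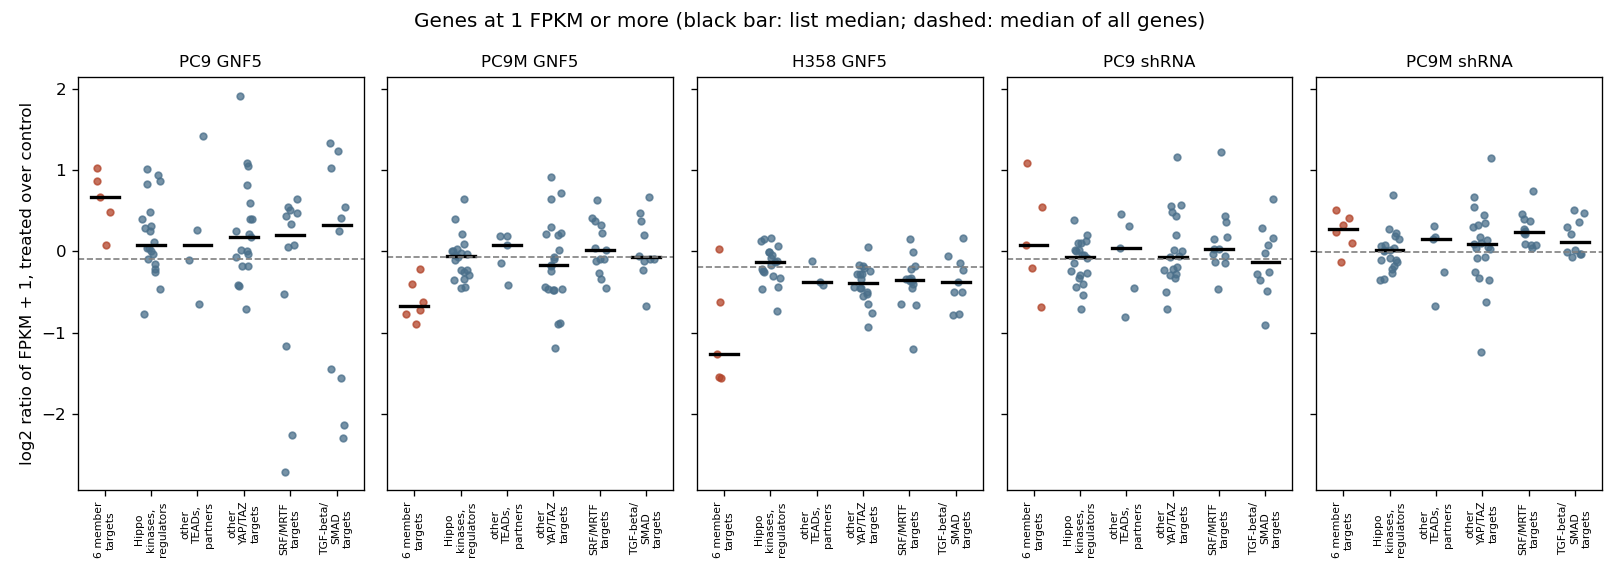
Log2 ratio of treated over control FPKM plus 1 (vertical axis) of each gene at 1 FPKM or more among the 6 targets (red, 5 of them where 1 is under 1 FPKM) and in 5 other gene lists (blue), 1 panel per pair of libraries, with the list median as a black bar and the median of all genes as a dashed line. The other YAP/TAZ targets have their median above that of all genes in PC9 with GNF5 and under it in PC9M and H358 with GNF5.

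The genes whose 5 ratios were most like those of CTGF were ranked by Euclidean distance among 9970 protein-coding genes that reached 5 FPKM in at least 2 libraries. The nearest were MCM5 and HRAS, both at 0.480, C2orf54 at 0.481, KIAA0101 at 0.490 and HSPA8 at 0.500. THBS1 ranked 39 and CYR61 ranked 51. CTGF was under 1 FPKM in all PC9 libraries, so its PC9 ratios, and the distances from it, depend on the pseudocount. These ratios were 0.38 with GNF5 and 0.05 with the shRNAs, and 1.94 and 0.32 at a pseudocount of 0.1 FPKM. For CYR61 the nearest were PCDH7 at 0.558, KIAA0101 at 0.597, OGFRL1 at 0.640, TYMS at 0.671 and IQCJ-SCHIP1 at 0.699, and CTGF ranked 18. Of these 9 different genes, KIAA0101 was near both. With 5 ratios, 1 for each pair, such a likeness is a description.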

How the data were processed

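RNA of 10 cultures was sequenced, 1 library per group. The submitters' processing notes name TopHat, Cuffdiff and the hg18 build. Their versions and the annotation are not given in the sources used here. The authors' deposited tables give FPKM for both libraries of a pair, with p-values and q-values for each single pair. Because each of the 5 tables has its own normalisation, ratios across tables were centred on their median and are named as such. The H358 table names its treated sample as if a further condition had shared the run, and this could not be checked. Listed starts are 0-based, so 1 was added.

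Ratios used a pseudocount of 1 FPKM. Single pairs have no test. Genes that reached 1 FPKM in at least 2 libraries entered a limma 3.58.1 fit (R 4.3.3) of the 5 ratios on the kind of perturbation, with a prior trended on expression, 3 residual degrees of freedom and Benjamini-Hochberg adjustment at 0.05. The fit was also run on simulated data, with independent noise and the same shift in all 5 ratios of the changed genes. Such data hold no pairing within a line and no difference in direction between lines. They therefore cannot check the p-values against either. The p-values of the fit rest on how single libraries vary from line to line, and PC9M and PC9, tied by name, may not be independent. PC9 and PC9M each gave a GNF5 and an shRNA ratio, and the fit held no term for the line. The average and the difference of the perturbations thus ignore this pairing. Other work used Python 3.11.15, numpy 2.4.6, pandas 2.3.3 and matplotlib 3.10.9.

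From every table, 28 entries whose symbol had become a date were left out, and EEF1A1 had no estimate in the table of PC9 with GNF5. From steps in low FPKM values, the GNF5 library was 1.04 times as deep as its control in PC9M and 1.2 times in H358. The shRNA library of PC9M was 1.08 times as deep as the scrambled one. No single step stood out in PC9 with GNF5 (14 genes) or with the shRNAs (0.574 times, 15 genes). No depth is therefore read for the PC9 pairs. The members and lists were chosen with earlier results of these data known. All 10 members were named, with up to 4 genes of the widest ratio per list and pair and the 5 genes most like CTGF and CYR61. Promoters came from RefSeq. The values of 1 gene of the TGF-beta list are not reported here.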

Additional observations from a re-analysis of the deposited data

Results flagged for a closer look

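4 genes had ratios with GNF5 that lay far apart between 2 lines, and in opposite directions. With 1 library per group these differences were not tested. The ratio (log2) of LATS2, GNF5 over DMSO, was higher in PC9 than in PC9M by 1.43, and the labelled dose differed between these lines too. The ratio in PC9 minus that in H358 was 1.93 for CTGF, 2.14 for CYR61 and 1.65 for THBS1. CTGF was under 1 FPKM in both PC9 libraries, and the THBS1 ratio in PC9 was 0.08, against -1.55 for CTGF and -1.56 for THBS1 in H358.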

How the results depend on the processing

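Single libraries, unknown depth and separate tables limit every value, and low transcripts such as ANKRD1, or CTGF in PC9, depend on the pseudocount. None of the 10 members was called by limma under any alternative, with adjusted p between 0.171 and 1 for GNF5, 0.575 and 1 for the shRNAs, 0.337 and 1 for the average and 0.252 and 1 for the difference. Of the members at least 2-fold higher, PC9 with GNF5 had 2 at a pseudocount of 0.1 and 0 at a pseudocount of 5, and PC9 with the shRNAs had 0 at a pseudocount of 5. Against the other control library, chosen after seeing the data, 2 were higher and 1 lower in PC9 with GNF5, 1 was higher in PC9M with GNF5 where the median became 0.12, 4 were higher in PC9 with the shRNAs, and 1 was lower in PC9M with the shRNAs. Genes called for GNF5 numbered 0 with no filter, 2 at a minimum of 5 FPKM, 3 at a pseudocount of 0.1, 0 at a pseudocount of 5 and 2 with centred ratios. For the shRNAs 1 was called at a pseudocount of 0.1 and 1 with centred ratios, and at a pseudocount of 0.1 the average and the difference had 2 each. Leaving out each pair in turn gave 0 to 5 called genes for GNF5, 0 to 5 for the shRNAs, 0 to 4 for the average and 0 to 5 for the difference. Left-out averages (log2) with GNF5 ran between -1.22 and -0.26 for CTGF, -1.17 and -0.35 for THBS1, -0.45 and 0.066 for TEAD4, -0.95 and 0.12 for CYR61, -0.35 and 0.35 for ANKRD1, -0.42 and 0.14 for AMOTL2 and -0.19 and 0.53 for LATS2. With the shRNAs, leaving out 1 pair leaves the ratio of the other pair and no average. These ratios in PC9 and PC9M were -0.79 and 0.16 for WWTR1, -0.063 and 0.11 for TEAD4 and -0.68 and 0.32 for THBS1. The GNF5 average of ANKRD1 was 0.28 at a pseudocount of 0.1 and 0.083 with centred ratios. Among the ratios and averages of single members, 17 of 40 changed sign against the other control library and 13 of 370 under the other alternatives, and the cause was not tested.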
